A study of Homo sapiens with 4 samples.

Results

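The retinoblastoma (RB) pocket proteins and the E2F transcription factors were examined as 10 genes, 3 pocket proteins (RB1, RBL1 and RBL2), 6 E2F factors (E2F1, E2F2, E2F3, E2F4, E2F7 and E2F8) and the dimerization partner TFDP1. They were picked out by gene symbol, with earlier results of these data known. All 10 were found once among the 24462 gene symbols counted. HepG2, a human liver cancer cell line that the labels class as hepatocellular carcinoma, was sequenced as 4 libraries of total RNA, 1 per condition. Cells received the solvent DMSO, the CDK4/6 inhibitor PD-0332991 (PD0332991, palbociclib), scrambled siRNA, or siRNAs against CDK4 and CDK6 together (CDK4/6 KD). CDK4/6 KD was compared with scrambled siRNA, and PD0332991 with DMSO. The sources used here give no drug dose and no treatment or transfection time for these libraries, so inhibitor and knockdown cannot be matched in strength or time.

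In quiescent cells the pocket proteins bind E2F factors and keep the genes for DNA synthesis silent. Cyclin D with CDK4 or CDK6, and then cyclin E with CDK2, phosphorylates the pocket proteins and frees the activators E2F1, E2F2 and E2F3, which switch on S phase genes and, in many cells, their own genes and RBL1. RBL1 and RBL2 with E2F4 form the DREAM complex on cell cycle promoters, and E2F7 and E2F8, made late in this programme, repress E2F targets again. The libraries measure mRNA, so neither the RB protein nor its phosphorylation can be read from them.

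Each library held 8983848 to 11176880 reads, counted at the 3′ ends of transcripts (QuantSeq), and levels are given as counts per 1000000 reads of scaled library size (CPM). The siRNA targets checked the labels: in the order DMSO, PD0332991, scrambled siRNA and KD, CDK4 had 2754, 2344, 3789 and 814 reads (KD over scrambled siRNA 0.203, 95% interval 0.188 to 0.219), and CDK6 had 4707, 4361, 5734 and 1464 reads (0.241, 0.228 to 0.256). All intervals cover the counting error of reads only. With 1 library per condition there was no replicate check and no test of the conditions, and culture to culture variation is not in any interval. All 8 hepatocyte markers had at least 10 reads in every library and summed to 15300 to 19500 CPM. The keratinocyte markers KRT5 (2, 113, 13 and 43 reads in DMSO, PD0332991, scrambled siRNA and KD) and KRT14 (9, 249, 31 and 74) were highest in PD0332991. So were KRT6A (9, 150, 37 and 28), KRT16 (2, 33, 12 and 8) and KRT17 (15, 139, 16 and 36). Of 8 keratinocyte markers tested, 5 were at least 2-fold higher in PD0332991 than in DMSO (7.49% of all genes) and 1 lower (7.06%). Scrambled siRNA over DMSO also had 5 of 8 higher (5.3%). KRT5, KRT6A, KRT14 and KRT16, counted as higher in both comparisons, had fewer than 10 reads in DMSO. They met the minimum of 10 reads only through the library where they were higher, so these counts cannot be read against the shares of all genes. The most counted keratinocyte marker, SFN, was lowest in PD0332991 (1221, 563, 3266 and 1152 reads) and highest in scrambled siRNA. KRT10 (606, 701, 514 and 986) was highest in KD. The 12 keratinocyte markers together ranged from 206 CPM in DMSO to 365 in scrambled siRNA, with KRT1 at 0 in DMSO, TP63 at 0 in scrambled siRNA, and DSG3 and DSC3 at 0 in KD. The 9 fibroblast and endothelial markers, mainly COL1A1 (332, 468, 73 and 207 reads), ranged from 9.07 CPM in scrambled siRNA to 79.3 in PD0332991, with CDH5 at 0 in all 4 libraries. The 5 immune markers ranged from 510 to 1040 CPM, nearly all of it LYZ, with CD3E at 0 in all libraries. Their part in the results was not tested.

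The promoter sequences are shown because several of these genes are regarded as E2F targets themselves. RefSeq windows of 300 bases (GRCh38.p14, 250 bases before to 50 after a transcript start) were found for 9 of the 10 genes, and 5 of their 11 windows held at least 1 of the E2F letters TTTGGCGC, TTTCGCGC, TTTCCCGC or TTTGCCGC on either strand. Such letters were found in 3.31% of all 35116 windows of this length. Windows are printed 5′ to 3′ on the gene's strand, with the matched letters in capitals. E2F1 lies at chr20:33686336-33686635 (minus strand), E2F2 at chr1:23531184-23531483 (minus), RBL1 at chr20:37095948-37096247 (minus), E2F3 at chr6:20401629-20401928 (plus) and TFDP1 at chr13:113584503-113584802 (plus). E2F7, at chr12:77065520-77065819 (minus), held no match and is printed for contrast.
E2F1: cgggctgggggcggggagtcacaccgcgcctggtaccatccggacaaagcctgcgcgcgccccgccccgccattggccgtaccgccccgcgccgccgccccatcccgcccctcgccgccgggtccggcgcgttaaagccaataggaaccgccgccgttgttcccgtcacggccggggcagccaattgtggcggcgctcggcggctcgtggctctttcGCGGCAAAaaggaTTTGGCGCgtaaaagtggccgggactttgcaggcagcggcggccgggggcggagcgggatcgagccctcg
E2F2: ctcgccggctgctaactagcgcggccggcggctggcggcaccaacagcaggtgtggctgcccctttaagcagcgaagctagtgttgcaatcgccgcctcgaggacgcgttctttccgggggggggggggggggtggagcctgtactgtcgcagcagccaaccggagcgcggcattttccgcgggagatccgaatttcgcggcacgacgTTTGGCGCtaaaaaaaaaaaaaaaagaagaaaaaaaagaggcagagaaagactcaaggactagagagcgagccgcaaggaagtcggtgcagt
RBL1: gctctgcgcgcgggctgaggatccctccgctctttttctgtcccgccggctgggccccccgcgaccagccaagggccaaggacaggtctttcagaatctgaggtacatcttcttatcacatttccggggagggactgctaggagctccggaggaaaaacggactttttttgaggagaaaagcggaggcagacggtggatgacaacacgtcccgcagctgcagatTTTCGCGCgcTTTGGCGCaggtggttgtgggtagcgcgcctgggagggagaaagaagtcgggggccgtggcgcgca
E2F3: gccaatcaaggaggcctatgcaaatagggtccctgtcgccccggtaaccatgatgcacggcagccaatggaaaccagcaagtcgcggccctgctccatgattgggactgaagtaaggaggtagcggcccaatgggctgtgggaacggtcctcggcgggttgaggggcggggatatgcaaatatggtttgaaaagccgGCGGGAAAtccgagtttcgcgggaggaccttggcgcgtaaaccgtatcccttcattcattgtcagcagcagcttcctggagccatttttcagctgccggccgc
TFDP1: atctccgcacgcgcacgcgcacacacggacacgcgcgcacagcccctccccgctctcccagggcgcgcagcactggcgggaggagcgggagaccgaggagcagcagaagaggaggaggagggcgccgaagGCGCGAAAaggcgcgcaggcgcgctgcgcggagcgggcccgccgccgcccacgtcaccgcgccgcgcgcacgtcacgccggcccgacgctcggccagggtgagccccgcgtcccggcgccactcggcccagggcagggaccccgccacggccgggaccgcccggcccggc
E2F7: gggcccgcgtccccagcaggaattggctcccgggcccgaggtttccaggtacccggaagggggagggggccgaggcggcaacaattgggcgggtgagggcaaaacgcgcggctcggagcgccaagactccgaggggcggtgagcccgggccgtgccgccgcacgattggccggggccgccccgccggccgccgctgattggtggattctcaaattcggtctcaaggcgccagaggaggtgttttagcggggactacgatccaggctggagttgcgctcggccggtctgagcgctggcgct

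In E2F1 the letters TTTGGCGC began 20 bases before the start (position -20), and TTTGCCGC lay on the opposite strand at -33. RBL1 carried TTTCGCGC at -26 and TTTGGCGC at -16, with 2 bases between them, and E2F2 carried TTTGGCGC at -42. E2F3 held TTTCCCGC and TFDP1 held TTTCGCGC on the opposite strand, at -53 and -120. The cell cycle homology letters TTTGAA or TTCGAA, present in 16.4% of all windows on either strand, occurred in the same E2F3 window at -65 and in a window of RBL2 at 25 bases after the start. E2F4 and E2F7 held neither kind. The transcript starts of the RBL2 windows, the matched 1 first, lie 494 and 1642 bases inside the GENCODE gene start. That of another E2F3 window, not printed, lies 1708 bases inside. The RB1 window starts from a transcript inside the gene and is not printed, and E2F8 had no entry. None of these matches overlapped another, and they describe letters, not binding.

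**Figure D1:**
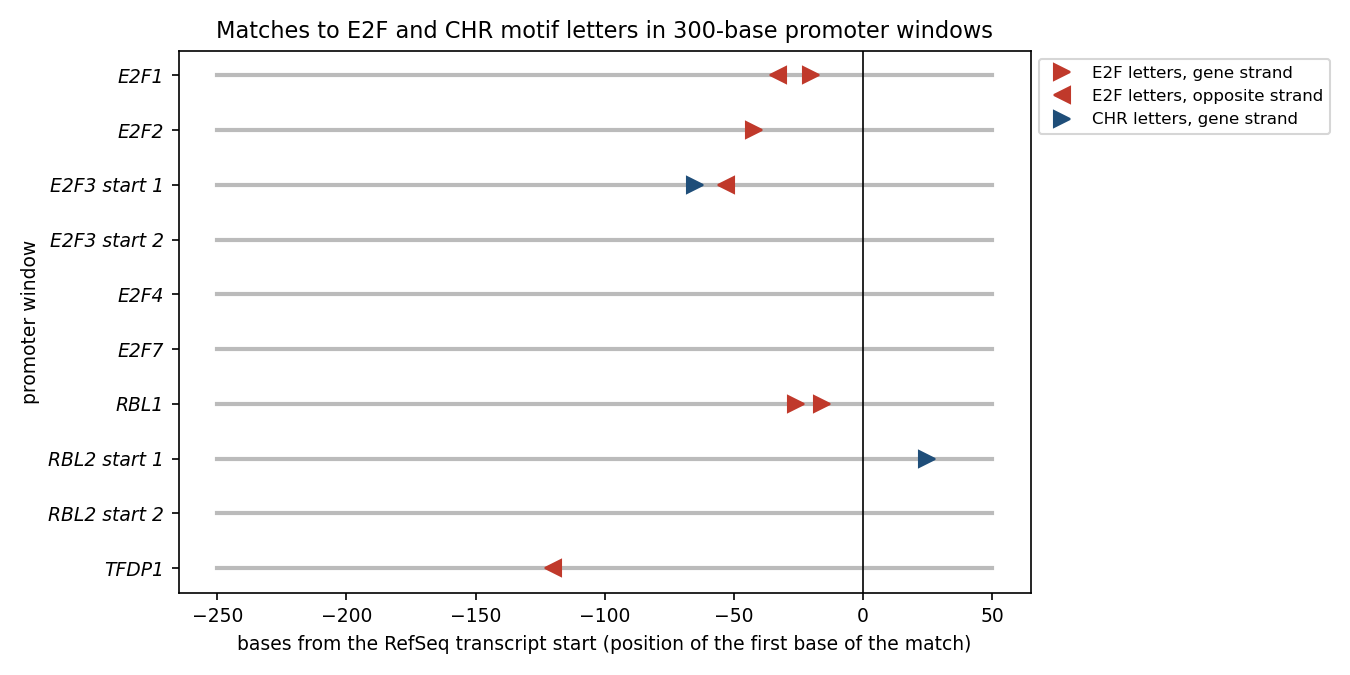
Positions of E2F letters (red) and cell cycle homology letters (blue) in the promoter windows of 8 of the genes, as bases from the RefSeq start, with arrowheads giving the strand. The matches of E2F1, E2F2 and RBL1 lie between -42 and -16, and that of TFDP1 at -120.

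All 10 genes had at least 10 reads in either library of each comparison. After CDK4/6 KD 4 of the 10 were at least 2-fold lower (E2F1, E2F3, E2F7 and E2F8), where 7.62% of the 13617 genes tested were, and 0 were at least 2-fold higher (9.19% of all genes). By the counting interval, 7 lay below 1 (31.9% of all genes) and 2, RB1 and RBL2, above 1 (30.0%). After PD0332991 7 of the 10 were at least 2-fold lower (RB1, RBL1, E2F1, E2F2, E2F7, E2F8 and TFDP1; 7.06% of 13443 genes) and 0 at least 2-fold higher (7.49%). RB1 passed narrowly, at 0.498, and was 0.504 with total counts, 0.523 with quantile normalization and 0.505 with 5 added reads, which leaves 6 genes. With the control of the other arm 5 genes were at least 2-fold lower. All but RBL2, 9 genes, had an interval below 1 (28.6% of all genes), and 0 an interval above 1 (28.1%). On the log2 scale the median over the 10 genes was -0.81 after KD and -1.79 after PD0332991, beside -0.0 and 0.02 over all genes tested.

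**Figure D2:**
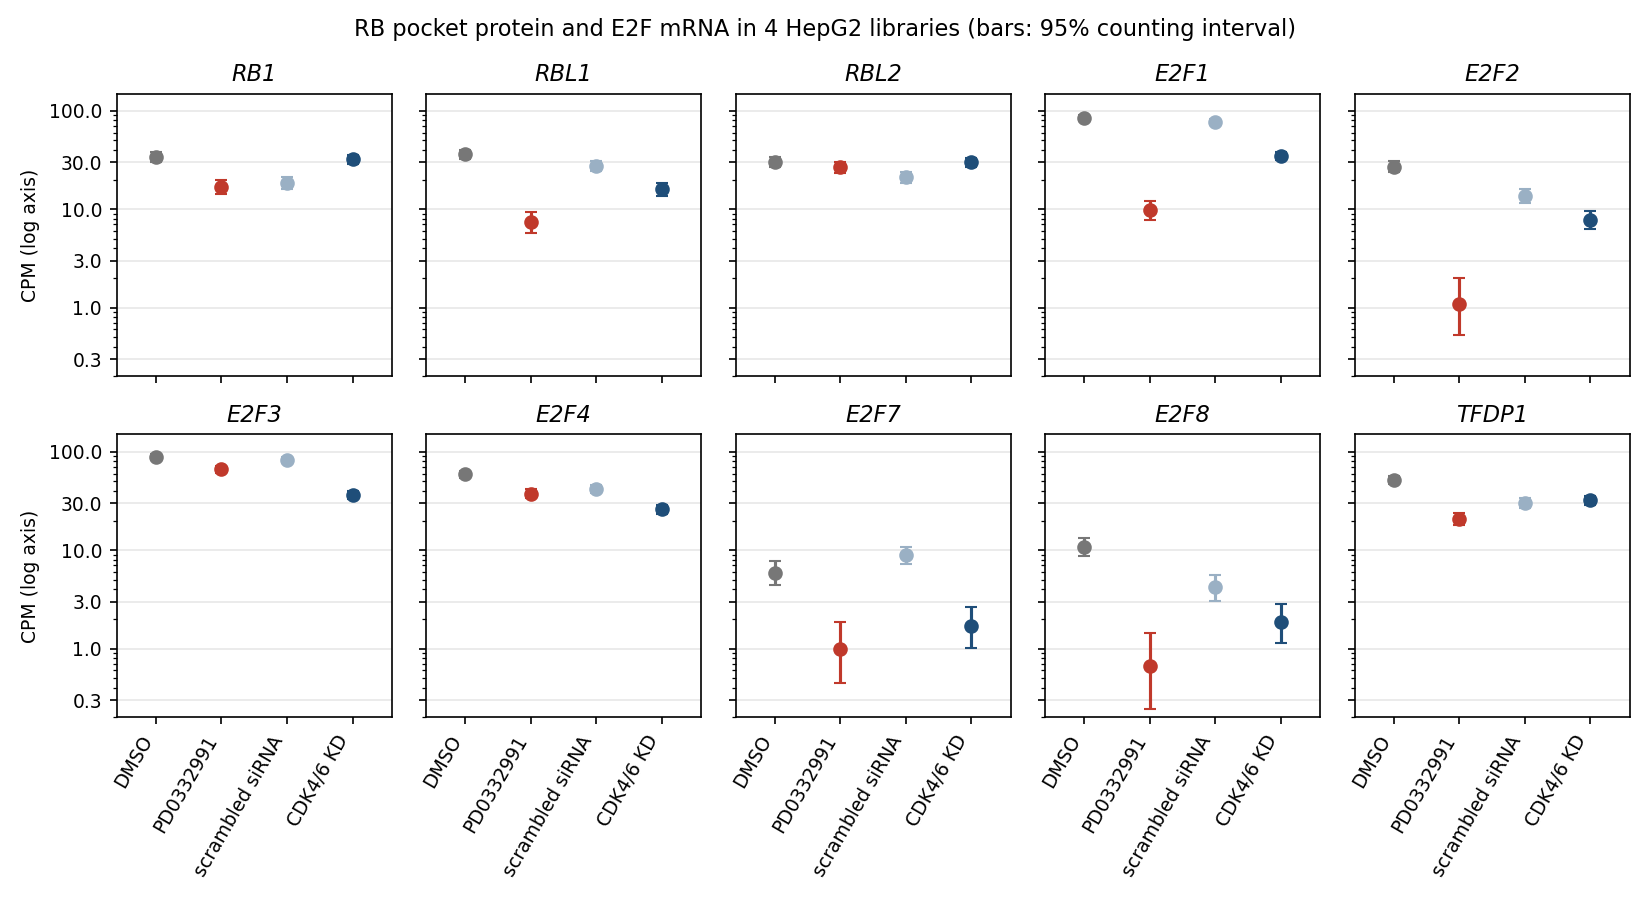
Levels of the 10 genes in CPM (log axis) in the DMSO, PD0332991, scrambled siRNA and CDK4/6 KD libraries, 1 point per library, bars giving the 95% counting interval. E2F2, E2F7 and E2F8 stand at 0.659 to 1.1 in PD0332991, and RBL2 spans only 21.1 to 30.1.

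RB1, the founding pocket protein (chromosome 13, 48303726 to 48599436, plus strand, GRCh38), had 34.0 CPM in DMSO (311 reads, interval 30.4 to 38.0), 16.9 in PD0332991 (154 reads, 14.3 to 19.8), 18.5 in scrambled siRNA (198 reads, 16.0 to 21.3) and 32.3 in CDK4/6 KD (366 reads, 29.1 to 35.8). The levels fell into a high pair, DMSO and KD, and a low pair, scrambled siRNA and PD0332991, and within each pair the counting intervals overlapped. RB1 was therefore higher after KD (fold change: 1.75, 1.47 to 2.09) and lower after PD0332991 (fold change: 0.498, 0.407 to 0.605) against the control of the same arm. The control libraries differed from each other by as much, with scrambled siRNA at 0.544 of DMSO (0.453 to 0.652). With the controls exchanged neither difference remained past its interval, at 0.95 (0.814 to 1.11) for KD over DMSO and 0.914 (0.736 to 1.13) for PD0332991 over scrambled siRNA.

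RBL1 (p107, chromosome 20, 36996349 to 37095995, minus strand) is the pocket protein whose gene is itself driven by E2F in cycling cells. It had 36.1 CPM in DMSO (330 reads), 7.47 in PD0332991 (68 reads), 27.8 in scrambled siRNA (297 reads) and 15.9 in KD (180 reads). Each step of the order DMSO, scrambled siRNA, KD, PD0332991 was larger than the counting error, and both inhibited libraries lay below both controls. The fold change was 0.574 after KD (0.473 to 0.692) and 0.208 after PD0332991 (0.157 to 0.269). With the other control they were 0.441 and 0.27.

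RBL2 (p130, chromosome 16, 53433977 to 53491649, plus strand), the pocket protein that prevails in resting cells, had 30.1 CPM in DMSO (275 reads), 26.8 in PD0332991 (244 reads), 21.1 in scrambled siRNA (226 reads) and 29.9 in KD (338 reads). DMSO, KD and PD0332991 could not be told apart by counting, and scrambled siRNA stood below them. The KD fold change of 1.41 (1.19 to 1.68) went to 0.992 (0.844 to 1.17) against DMSO, and the PD0332991 fold change of 0.891 (0.746 to 1.06) went to 1.27 (1.05 to 1.53) against scrambled siRNA. The last kilobase of RBL2 overlaps AKTIP on the other strand (199, 183, 179 and 256 reads in DMSO, PD0332991, scrambled siRNA and KD), and whether the counting used strand is not given in the sources used here.

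Ratios between genes within 1 library need no scaling between libraries. RBL1 over RBL2 was 1.2 in DMSO (1.02 to 1.41), 1.31 in scrambled siRNA (1.1 to 1.57), 0.533 in KD (0.442 to 0.64) and 0.279 in PD0332991 (0.21 to 0.366). Both controls had more RBL1 than RBL2 reads, and both inhibited libraries had fewer. The ratio changed by 0.405 after KD (0.316 to 0.52) and by 0.232 after PD0332991 (0.17 to 0.318), while the controls differed by 1.1 (0.865 to 1.39). RB1 over RBL2 was 1.13, 0.631, 0.876 and 1.08 in DMSO, PD0332991, scrambled siRNA and KD. This ratio was lower after PD0332991 (0.558, 0.431 to 0.723), and its change after KD did not pass counting error (1.24, 0.971 to 1.57). For RB1 over RBL2 the controls differed by 0.775 (0.603 to 0.995), so the size of the PD0332991 change depended on the control.

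**Figure D3:**
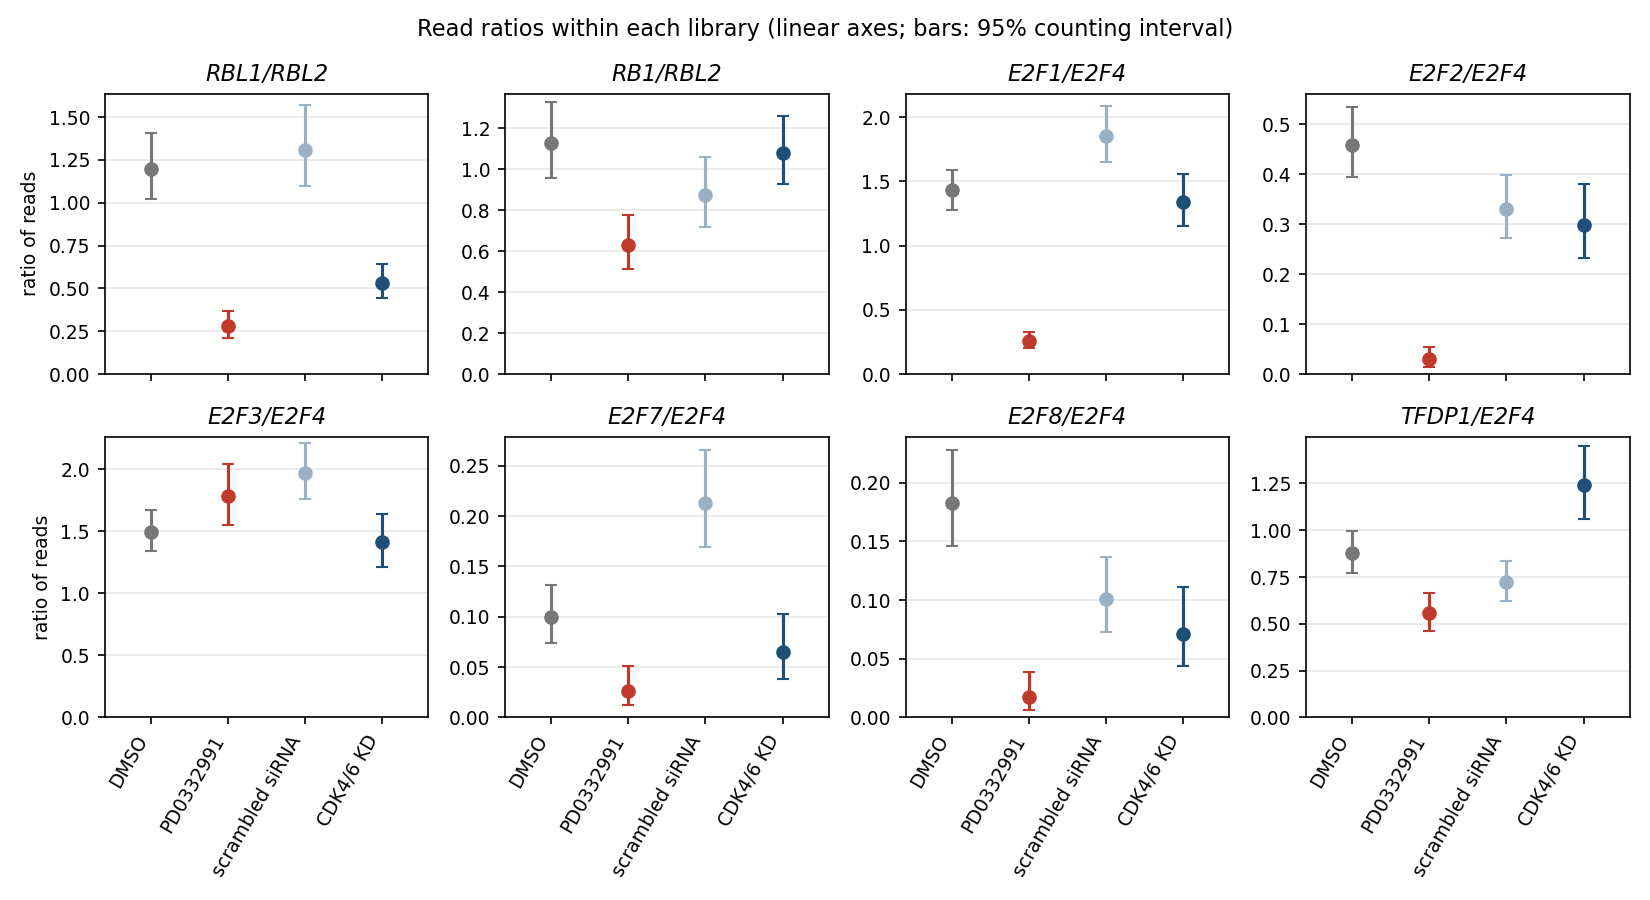
Ratio of reads of 2 genes within each library (linear axes from 0), 1 point per library, bars giving the 95% counting interval. RBL1/RBL2 is above 1 in both controls and at 0.533 and 0.279 in the KD and PD0332991 libraries, and E2F1/E2F4 is 0.261 in PD0332991 against 1.34 to 1.85 in the other libraries.

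E2F1 (chromosome 20, 33675683 to 33686404, minus strand), the activator best known for driving entry into S phase, had 84.3 CPM in DMSO (770 reads, 78.4 to 90.4), 9.77 in PD0332991 (89 reads, 7.85 to 12.0), 77.3 in scrambled siRNA (827 reads, 72.1 to 82.7) and 34.7 in KD (393 reads, 31.4 to 38.3). The controls could not be told apart by counting, both inhibited libraries lay below them, and PD0332991 lay below KD by 3.54-fold (2.82 to 4.52). The fold change was 0.45 after KD (0.397 to 0.507) and 0.117 after PD0332991 (0.0921 to 0.145), the latter 90th from the lowest of 13443 genes. The exchanged controls gave 0.412 and 0.127. In bulk RNA, fewer cells in the E2F-active part of the cycle and less E2F1 RNA per cell cannot be told apart, here and for the other genes.

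E2F2 (chromosome 1, 23506430 to 23531220, minus strand), the second activator, had 27.1 CPM in DMSO (248 reads), 1.1 in PD0332991 (10 reads, 0.527 to 2.02), 13.7 in scrambled siRNA (147 reads) and 7.77 in KD (88 reads). Every library differed from the next in this order beyond counting error, the controls included (scrambled siRNA over DMSO 0.507, 0.41 to 0.623). The fold change after PD0332991 was 0.0424 (0.0192 to 0.0757), which ranked 10th from the lowest of 13443 genes. After KD it was 0.567 (0.429 to 0.742), or 0.288 (0.222 to 0.367) against DMSO. The PD0332991 value rests on 10 reads in the treated library.

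E2F3 (chromosome 6, 20401906 to 20493715, plus strand), the third activator, had 88.2 CPM in DMSO (806 reads), 66.6 in PD0332991 (606 reads), 82.1 in scrambled siRNA (879 reads) and 36.7 in KD (415 reads). Its order differed from that of E2F1 and E2F2, since the KD library and not PD0332991 was lowest, PD0332991 lying 1.81-fold above KD (1.6 to 2.06). The fold change was 0.447 after KD (0.396 to 0.502) and 0.755 after PD0332991 (0.678 to 0.839), and the controls could not be told apart (0.931, 0.845 to 1.03). With exchanged controls these were 0.416 and 0.81. The pseudogenes E2F3P1 and E2F3P2 are not listed in the count tables, and reads shared with them could not be separated.

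E2F4 (chromosome 16, 67192169 to 67198918, plus strand), the E2F of the repressive DREAM complex, had 59.1 CPM in DMSO (540 reads), 37.5 in PD0332991 (341 reads), 41.7 in scrambled siRNA (446 reads) and 26.0 in KD (294 reads). DMSO was highest, KD was lowest, and scrambled siRNA and PD0332991 lay between them without a difference beyond counting. The fold changes were close, 0.624 after KD (0.536 to 0.724) and 0.634 after PD0332991 (0.552 to 0.727), and the controls differed by 0.706 (0.621 to 0.801). Against the other control KD was 0.44 and PD0332991 0.899, the latter with an interval that included 1 (0.778 to 1.04). A pseudogene, E2F4P1, is likewise absent from the tables.

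E2F7 (chromosome 12, 77021247 to 77065580, minus strand), an atypical E2F that binds DNA without a DP partner and represses E2F targets, had 5.91 CPM in DMSO (54 reads), 0.988 in PD0332991 (9 reads), 8.88 in scrambled siRNA (95 reads) and 1.68 in KD (19 reads). Both inhibited libraries were far below both controls, and the inhibited libraries did not differ from each other beyond counting. Of the 10 genes it had the lowest fold change after KD, 0.193 (0.109 to 0.312), which ranked 123rd from the lowest of 13617 genes. After PD0332991 the value was 0.175 (0.0726 to 0.342). The exchanged controls gave 0.29 and 0.116, and scrambled siRNA was 1.5-fold above DMSO (1.06 to 2.14).

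E2F8 (chromosome 11, 19224063 to 19241620, minus strand), the other atypical repressor, had 10.8 CPM in DMSO (99 reads), 0.659 in PD0332991 (6 reads, 0.242 to 1.43), 4.21 in scrambled siRNA (45 reads) and 1.86 in KD (21 reads). The antisense gene AC009652.2 overlaps its last kilobase and is not listed in the count tables, so reads from it could not be separated if the counting ignored strand. All 4 libraries differed in turn, and both inhibited libraries were below both controls. The fold change was 0.0655 after PD0332991 (0.0218 to 0.137), 29th from the lowest of 13443 genes, and 0.447 after KD (0.25 to 0.756). Because scrambled siRNA was itself at 0.391 of DMSO (0.267 to 0.557), KD over DMSO was 0.175 (0.102 to 0.276) and PD0332991 over scrambled siRNA 0.167 (0.0546 to 0.368).

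TFDP1 (DP1, chromosome 13, 113584721 to 113641470, plus strand), the partner that classical E2F factors need to bind DNA, had 51.9 CPM in DMSO (474 reads), 20.9 in PD0332991 (190 reads), 30.1 in scrambled siRNA (322 reads) and 32.2 in KD (364 reads). KD and scrambled siRNA could not be told apart (1.07, 0.917 to 1.25), DMSO was highest and PD0332991 lowest. The fold change after PD0332991 was 0.403 (0.338 to 0.477), and against scrambled siRNA it was 0.694 (0.577 to 0.832). KD over DMSO was 0.62 (0.539 to 0.712), so the KD result for TFDP1 depended on the control library.

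**Figure D4:**
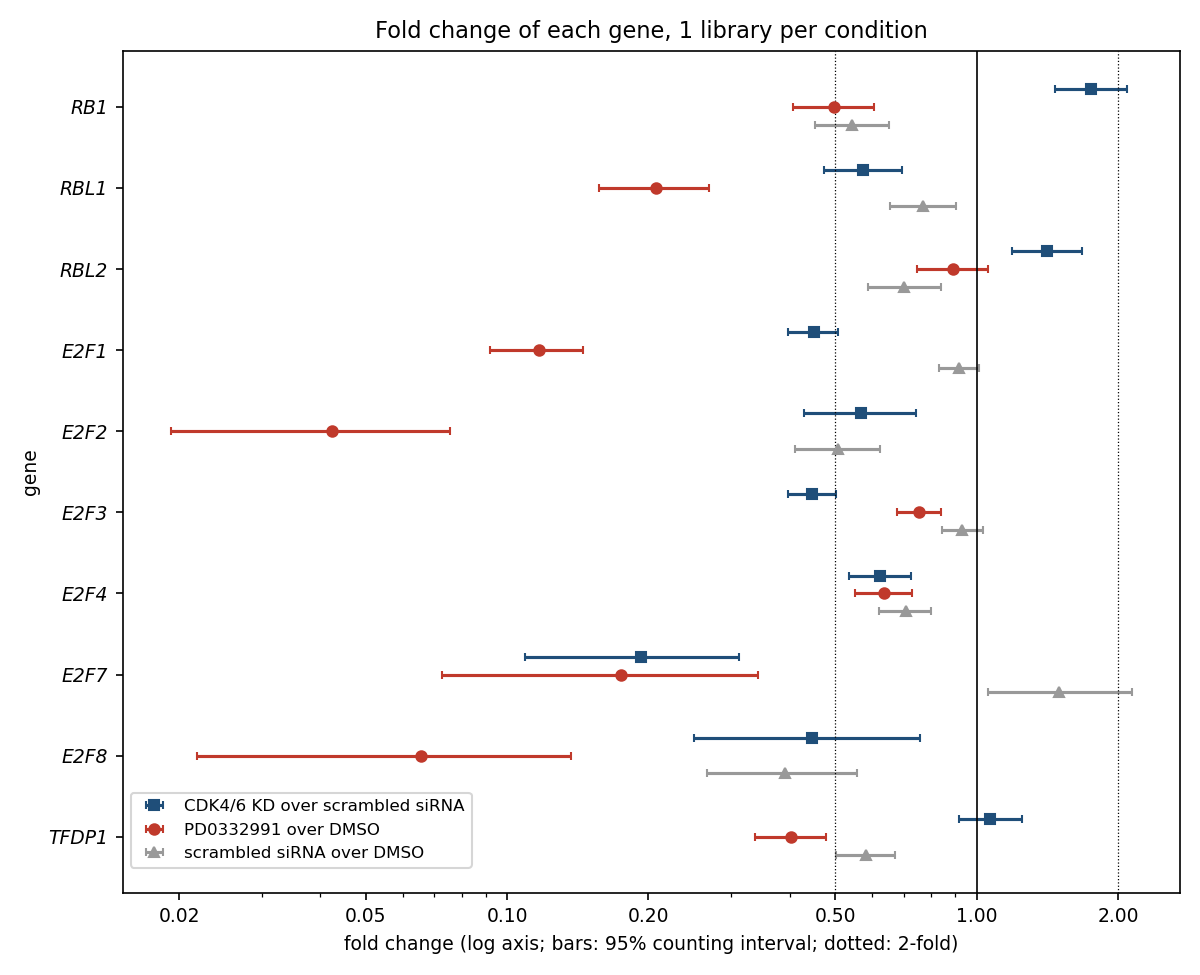
Fold change of each gene on a log axis for CDK4/6 KD over scrambled siRNA (blue squares), PD0332991 over DMSO (red circles) and scrambled siRNA over DMSO (grey triangles), bars giving the 95% counting interval and dotted lines 2-fold. E2F1, E2F2 and E2F8 lie at 0.117, 0.0424 and 0.0655 after PD0332991 and at 0.45, 0.567 and 0.447 after KD, while E2F3 lies lower after KD.

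The control libraries were set against each other to show how far cells without CDK4/6 inhibition differed. Scrambled siRNA over DMSO had 1 of the 10 genes at least 2-fold lower, E2F8 (6.64% of 13303 genes), 0 at least 2-fold higher (5.3%), 7 with an interval below 1 (28.0% of all genes) and 1, E2F7, above 1 (28.3%). Over the 10 genes the median on the log2 scale was -0.51, beside 0.01 over all genes tested. Solvent, transfection and culture cannot be told apart in this difference. Both drug and siRNA comparisons involve 1 of these controls each, so the exchanged values stand beside each gene above.

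The KD fold change was next divided by the PD0332991 fold change, gene by gene, each against the control of its own arm. It was above 1 beyond counting error for 7 genes, below 1 for 1, E2F3, and had an interval that included 1 for E2F4 and E2F7. The quotient was not computed over all genes. These counts, and those with exchanged controls, therefore have no share of all genes to be read against. The largest quotients were 14.0 for E2F2 (7.05 to 27.7), 7.25 for E2F8 (2.74 to 19.2) and 3.87 for E2F1 (3.02 to 4.97), and that of E2F3 was 0.592 (0.505 to 0.692). With exchanged controls 4 genes were above 1, E2F1 (3.26, 2.54 to 4.18), E2F2 (3.58, 1.81 to 7.11), RBL1 (1.64, 1.19 to 2.25) and E2F7 (2.55, 1.08 to 6.03). Below 1 were 3 genes, E2F3 (0.513, 0.438 to 0.6), E2F4 (0.489) and RBL2 (0.782), while E2F8 went to 1.09 (0.413 to 2.89) and RB1 from 3.52 (2.71 to 4.56) to 1.04 (0.802 to 1.35). Thus E2F1, E2F2 and RBL1 were lower after PD0332991 than after KD, relative to control, with either assignment of controls, and E2F3 was lower after KD with either.

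Relative to E2F4 in the same library, the activators moved apart after PD0332991. E2F1 over E2F4 was 1.43 in DMSO, 1.85 in scrambled siRNA, 1.34 in KD and 0.261 in PD0332991, a change of 0.183 after PD0332991 (0.141 to 0.237) and 0.721 after KD (0.596 to 0.872). E2F2 over E2F4 changed by 0.0639 after PD0332991 (0.0335 to 0.122) and by 0.908 after KD, within counting error (0.671 to 1.23). E2F3 over E2F4 was 1.49, 1.78, 1.97 and 1.41 in DMSO, PD0332991, scrambled siRNA and KD, with a change of 0.716 after KD (0.594 to 0.864) and 1.19 after PD0332991 (1.0 to 1.41). The controls also differed beyond counting error. Scrambled siRNA over DMSO was 1.3 for E2F1/E2F4 (1.11 to 1.52) and 0.718 for E2F2/E2F4 (0.565 to 0.912). For E2F3/E2F4 it was 1.32 (1.13 to 1.55). E2F2 over E2F4 was 0.459 in DMSO, 0.33 in scrambled siRNA and 0.299 in KD. The KD changes of these ratios, and the PD0332991 change of E2F3 over E2F4, therefore depended on the control. These values describe how the mRNAs changed against each other, not how much of each protein was present.

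The atypical factors and TFDP1 also changed against E2F4. E2F7 over E2F4 was 0.1 in DMSO, 0.0264 in PD0332991, 0.213 in scrambled siRNA and 0.0646 in KD, a change of 0.303 after KD (0.181 to 0.507) and 0.264 after PD0332991 (0.129 to 0.541). E2F8 over E2F4 changed by 0.096 after PD0332991 (0.0416 to 0.221) and by 0.708 after KD, within counting error (0.413 to 1.21). TFDP1 over E2F4 went in opposite directions, 1.71 after KD (1.39 to 2.12) and 0.635 after PD0332991 (0.511 to 0.788). The controls differed for these ratios too. Scrambled siRNA over DMSO was 2.13 for E2F7/E2F4 (1.49 to 3.04) and 0.55 for E2F8/E2F4 (0.379 to 0.8). For TFDP1/E2F4 it was 0.823 (0.681 to 0.994). E2F8 over E2F4 was 0.183 in DMSO, 0.101 in scrambled siRNA and 0.0714 in KD. The KD changes of E2F7 and E2F8 over E2F4 therefore depended on the control. The intervals of these changes are log-normal approximations to counting error.

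The other genes of the pathway were described by lists. Of the remaining family members, E2F5 was 0.879 after KD (0.75 to 1.03) and 0.727 after PD0332991 (0.62 to 0.85), and E2F6, a repressor that does not bind pocket proteins, was 0.811 and 0.931. TFDP2, the second DP partner, was 1.29 after KD (1.14 to 1.46) and 1.18 after PD0332991 (1.04 to 1.34). None of these 3 genes passed 2-fold in either comparison. Of all genes, 7.62% were at least 2-fold lower and 9.19% higher after KD, and 7.06% and 7.49% after PD0332991.

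Of the 8 genes of the MuvB core and its MYB and FOXM1 partners, 2 were at least 2-fold lower after KD (7.62% of all genes). After PD0332991 5 were (7.06%), with 0 at least 2-fold higher in either comparison (9.19% and 7.49%). The median log2 fold change was -0.43 and -1.36. MYBL2, which joins MuvB in S phase to activate mitotic genes, was 0.332 after KD (0.302 to 0.366) and 0.113 after PD0332991 (0.0972 to 0.13). FOXM1, which follows it in G2, was 0.599 and 0.217. MYBL1 had 66 reads in scrambled siRNA and 31 in KD (fold change: 0.448), and 61 in DMSO. Its 2 reads in PD0332991 are under the floor of 3 reads, with a ratio of 0.0408 and a counting interval of 0.0039 to 0.124. Of the MuvB subunits, LIN52 was 0.526 after KD (0.41 to 0.67) and 0.46 after PD0332991 (0.351 to 0.596), and LIN37 was 1.55 (1.02 to 2.41) and 1.63 (1.05 to 2.57). RBBP4 was 1.17 (1.08 to 1.27) and 0.854 (0.788 to 0.924). LIN54 and LIN9 were 0.329 (0.254 to 0.42) and 0.575 (0.361 to 0.89) after PD0332991. Their KD values, 0.916 (0.729 to 1.15) and 1.31 (0.825 to 2.13), had intervals that included 1. Scrambled siRNA was itself below DMSO for LIN54 (0.517, 0.421 to 0.631), LIN9 (0.49, 0.307 to 0.758) and RBBP4 (0.683, 0.63 to 0.741). LIN54 had 28.8 CPM in DMSO, 9.44 in PD0332991, 14.9 in scrambled siRNA and 13.6 in KD. In this order LIN9 had 6.35, 3.62, 3.08 and 4.06, and RBBP4 148, 126, 101 and 119. The contrasts of these genes therefore depended on the control.

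Of the 8 kinases and cyclins that phosphorylate RB, 2 were at least 2-fold lower after KD (7.62% of all genes), the siRNA targets CDK4 and CDK6. After PD0332991 the 3 at least 2-fold lower (7.06% of all genes) were CDK2 (0.312, 0.277 to 0.35), CCNE1 (0.452, 0.366 to 0.553) and CCNE2 (0.328, 0.214 to 0.482). The same 3 genes were 0.629, 0.896 and 0.902 after KD. Scrambled siRNA over DMSO was 0.754 for CDK2 (0.694 to 0.818), 1.38 for CCNE1 (1.19 to 1.6) and 0.531 for CCNE2 (0.382 to 0.727). CDK2 had 135 CPM in DMSO, 42.1 in PD0332991, 102 in scrambled siRNA and 64.0 in KD, and CCNE2 had 11.5, 3.73, 6.07 and 5.48. Which values of CDK2 and CCNE2 passed 2-fold therefore depended on the control. CCND1, CCND2 and CCND3, the D cyclins, were 0.626, 0.564 and 0.558 after KD and 1.08, 0.957 and 0.586 after PD0332991. For CCND3 scrambled siRNA was 1.37-fold above DMSO (1.06 to 1.79). It had 10.7 CPM in DMSO, 6.26 in PD0332991, 14.8 in scrambled siRNA and 8.22 in KD, so the size of its changes depended on the control. The list's median log2 fold change was -0.75 and -0.5.

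The CDK inhibitors, of which 6 of 7 could be tested (CDKN1C had 0 reads in all 4 libraries), differed gene by gene. CDKN2C (p18), which binds CDK4 and CDK6 and is a known E2F target, went from 316 reads in DMSO to 21 in PD0332991 (fold change: 0.0682, 0.0407 to 0.104). Its KD value of 0.898 (0.713 to 1.13) depended on the control, since scrambled siRNA was at 0.428 of DMSO (0.35 to 0.518) and the levels were 34.6 CPM in DMSO, 14.8 in scrambled siRNA and 13.3 in KD. CDKN2D (p19) was 2.07 after KD (1.64 to 2.63) and 0.827 after PD0332991. Scrambled siRNA was at 0.691 of DMSO (0.528 to 0.899) for CDKN2D, and KD had 20.3 CPM against 14.2 in DMSO. Its passing of 2-fold after KD therefore depended on the control. CDKN1A (p21) was 0.354 after KD and 1.27 after PD0332991, but scrambled siRNA was 2.53-fold above DMSO (2.37 to 2.7) for this gene. CDKN2B was 0.227 after KD (0.114 to 0.399), where scrambled siRNA was 2.66-fold above DMSO (1.59 to 4.78) and KD had 1.24 CPM against 2.08 in DMSO, and its PD0332991 value of 1.52 had an interval that included 1 (0.83 to 2.89). CDKN2A was 0.559 after KD (0.458 to 0.679), with scrambled siRNA 1.48-fold above DMSO (1.22 to 1.81), and 1.15 after PD0332991 (0.928 to 1.43). CDKN1B was 1.18 and 0.701.

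Among 11 corepressors and other partners of RB, 0 passed 2-fold after KD, where 7.62% of all genes were lower and 9.19% higher. After PD0332991 0 were at least 2-fold higher (7.49% of all genes) and 1 was at least 2-fold lower (7.06%). This was SUV39H1, a histone H3 lysine methyltransferase recruited by RB, with 0.511 (0.329 to 0.773) after KD and 0.312 (0.17 to 0.526) after PD0332991. ARID4A and ARID4B, which bridge RB to a histone deacetylase complex, were 1.46 and 1.39 after KD and 1.12 and 0.951 after PD0332991. For ARID4B scrambled siRNA was at 0.704 of DMSO (0.648 to 0.765), and KD had 136 CPM against 139 in DMSO. ARID4A had 120 CPM in KD against 80.8 in DMSO. HDAC1, HDAC2, RBBP7, SMARCA4 and SIN3A ranged from 0.826 to 0.976 after KD and from 0.715 to 1.01 after PD0332991. RBBP8 was 0.706 and 0.621, SMARCA2 1.12 and 1.4, and SIN3B 0.916 and 1.25. Scrambled siRNA over DMSO was 1.35 for RBBP8 (1.21 to 1.5) and 0.656 for SIN3B (0.547 to 0.784).

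Genes that E2F factors are known to control were mostly lower in both comparisons. Of 29 E2F targets of the G1/S transition, 17 were at least 2-fold lower after KD (7.62% of all genes) and 27 after PD0332991 (7.06%). None was at least 2-fold higher in either (9.19% and 7.49% of all genes), and the median log2 fold change was -1.08 and -2.6. RRM2, the inducible subunit of ribonucleotide reductase, was 0.151 after KD (0.135 to 0.169) and 0.0466 after PD0332991 (0.0372 to 0.057). The next lowest were ORC1 (0.209) and CDC25A (0.275) after KD, and CDC6 (0.0572) and UHRF1 (0.0983) after PD0332991. DNMT1, the maintenance DNA methyltransferase, was the 1 gene of the list with an interval above 1 after KD (1.41, 1.3 to 1.53). It had 2436 reads in DMSO, 706 in PD0332991, 922 in scrambled siRNA and 1374 in KD. Scrambled siRNA was at 0.323 of DMSO (0.299 to 0.349) for DNMT1, and KD had 121 CPM against 267 in DMSO. Its KD value above 1 therefore depended on the control. The 2 genes not 2-fold lower after PD0332991 were APAF1 (0.702) and TP73 (0.709).

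Of 15 DREAM targets of G2 and mitosis, 6 were at least 2-fold lower after KD and all 15 after PD0332991 (median log2 fold change -0.91 and -2.78). CDK1, the mitotic kinase, was 0.316 after KD and 0.0825 after PD0332991, and AURKB, of the chromosomal passenger complex, was 0.368 and 0.0905. TOP2A was 0.395 after KD and BUB1 0.0924 after PD0332991. The controls also differed for both lists, with a median log2 fold change of scrambled siRNA over DMSO of -0.58 for the G1/S and -0.61 for the G2 and mitosis targets.

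**Figure D5:**
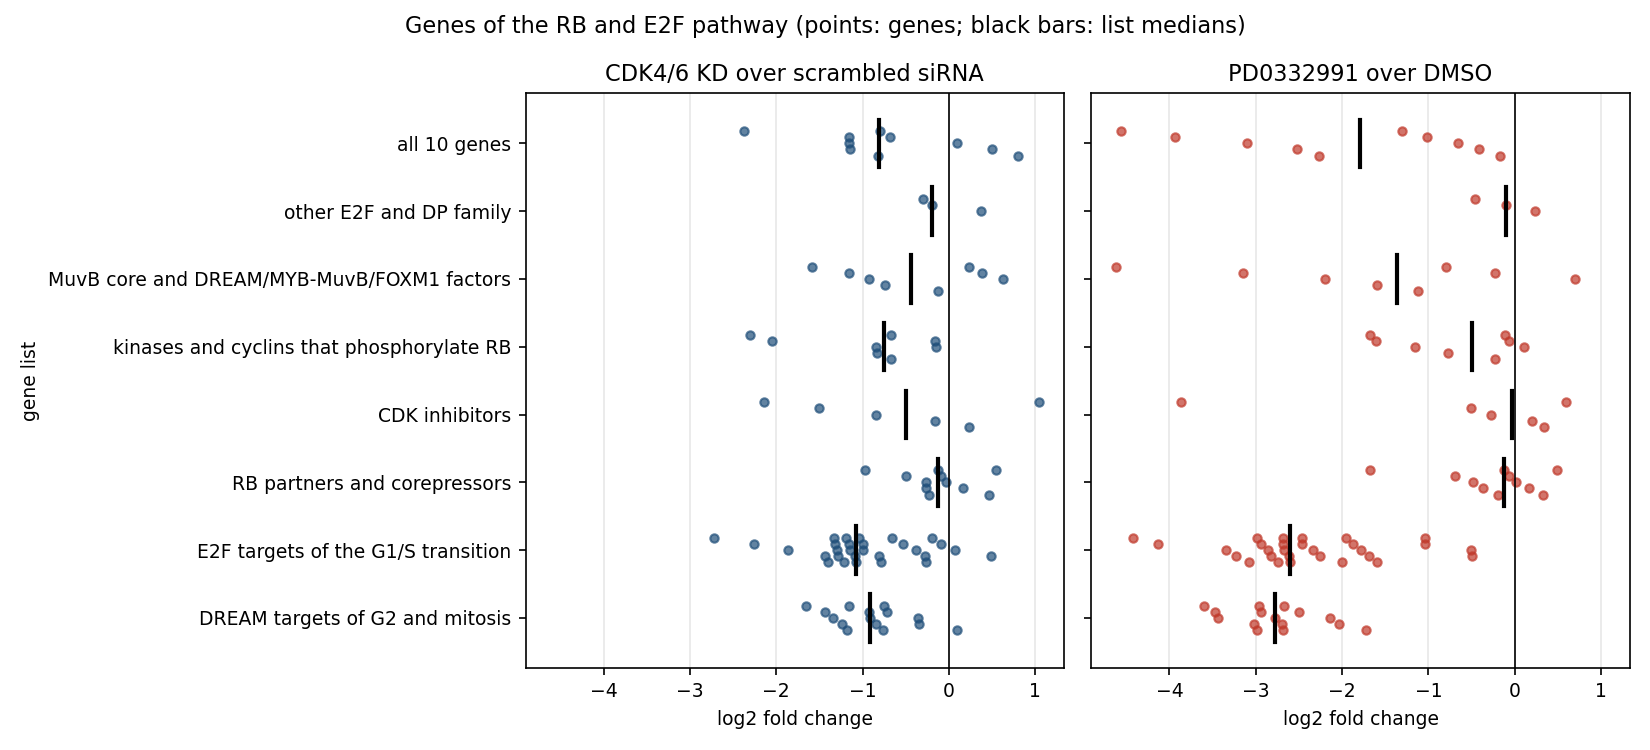
Log2 fold changes of genes in the 10 genes and 7 pathway lists (points) with list medians (black bars), for CDK4/6 KD over scrambled siRNA (left) and PD0332991 over DMSO (right). The medians of the G1/S targets lie at -1.08 and -2.6, and those of the corepressors at -0.13 and -0.12.

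Each gene whose level spanned at least 1 on the log2 CPM scale was set beside the 3 genes with the nearest pattern, by the Euclidean distance between log2 CPM centred on the mean of the 4 libraries (11811 candidates). RBL2 spanned 0.51 and was left out. The genes nearest to E2F1 were KIF15 (distance 0.0992), CDCA2 (0.151) and ECT2 (0.17), and those nearest to RBL1 were CDC20 (0.091), FOXM1 (0.104) and NCAPD3 (0.116). E2F2 was nearest to CDCA5 (0.325), IQGAP3 (0.447) and KIF23 (0.451), and E2F8 to FAM64A (0.339), KIF18B (0.365) and CDK1 (0.447). E2F7 was nearest to CDC25A (0.378), HIST1H2BC (0.499) and SHCBP1 (0.658). E2F3 was nearest to AMD1 (0.0777), RAD23B (0.0889) and LSM12 (0.115), and AMD1 had 274 CPM in DMSO, 201 in PD0332991, 267 in scrambled siRNA and 114 in KD. E2F4 was nearest to SLC5A3 (0.0671), TFAP4 (0.0873) and SPATA5 (0.0923), and TFDP1 to ARL6IP1 (0.0332), GCH1 (0.137) and DNAH11 (0.142). RB1 was nearest to MEX3D (0.0675), LIF (0.0683) and GLDC (0.1). The distances rest on 4 libraries as points and are a description only.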

How the data were processed

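Gene expression was measured in 4 HepG2 libraries, 1 per condition, prepared with a 3′ end kit (QuantSeq) from total RNA. The authors deposited raw read counts for 25737 entries (24462 gene symbols) per library. Per the submitters' processing notes the tools were Bowtie2 and edgeR and the build was hg19, without versions. The counter, the annotation and the use of strand are not given in the sources used here. Entries with the same symbol were summed (286 symbols, none of the 10 genes).

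Libraries were scaled by TMM (edgeR 4.0.16 in R 4.3.3). Fold changes added 0.5 reads, scaled to library size, and were given 95% intervals by the exact Clopper-Pearson method for the share of reads in each library (scipy 1.17.1). Levels carry exact Poisson intervals. A minimum of 10 reads in either library was required, and a library with 3 reads or fewer was taken to be at the floor. The fold change step was tested on simulated Poisson counts, which hold counting error only and no variation between cultures. Gene positions are from GENCODE 29 (GRCh38), promoter windows from RefSeq, matched by symbol.

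Groups came from the sample titles. Without replicates no test of conditions was run, and no p-value is given. The text names all 10 genes, all genes of pathway lists of 11 or fewer, the 3 genes with the largest change in the direction of the median of each target list and any gene past 2-fold in the opposite direction, and the 3 nearest patterns among genes with at least 100 reads. DNMT1, APAF1 and TP73 were named after their values were seen. The genes, lists and rules were chosen with earlier results of these data known. Alternatives were DESeq2 1.42.0 size factors, total counts, quantile normalization (limma 3.58.1), 5 added reads, no filter or 50 reads, the most counted entry of a symbol, other thresholds and the control of the other arm. Protein sequences were not used here.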

Additional observations from a re-analysis of the deposited data

Results flagged for a closer look

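RB1 was singled out because its fold changes pointed in opposite directions in the drug and the siRNA comparison, 1.75 (1.47 to 2.09) for CDK4/6 KD over scrambled siRNA and 0.498 (0.407 to 0.605) for PD0332991 over DMSO, each from 1 library per condition. Whether the difference between these effects exceeds the variation between cultures was not tested, as no condition had a replicate. With the control libraries exchanged the values were 0.95 (0.814 to 1.11) and 0.914 (0.736 to 1.13), both with intervals that include 1. Scrambled siRNA and PD0332991 shared the low RB1 level, 18.5 and 16.9 CPM, and DMSO and KD the high one, 34.0 and 32.3 CPM.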

How the results depend on the processing

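The 30 fold changes of the 10 genes over 3 comparisons stayed within their counting intervals under DESeq2 size factors, total counts, quantile normalization, 5 added reads, no filter and the most counted entry of a symbol. A minimum of 50 reads left 29, E2F8 dropping out of the KD comparison. Against the control of the other arm, which replaces the compared library, 6 of 20 stayed within the interval, 12 moved, and 2 whose interval had excluded 1 crossed it, with KD giving 0.95 for RB1 (0.814 to 1.11) and 0.992 for RBL2 (0.844 to 1.17), both with intervals that include 1. Among those that moved, RBL2 after PD0332991 also crossed 1, from 0.891 (0.746 to 1.06) to 1.27 (1.05 to 1.53), and that interval lies above 1. Total counts moved the median log2 fold change of all genes by 0.104 in the KD comparison. The genes at least 2-fold lower after KD were 4, and 7 at 1.5-fold, 1 with the whole interval past 2-fold and 7 against DMSO, and at 1.5-fold 1 was higher. After PD0332991 the 7 lower became 6 with total counts, quantile normalization, 5 added reads or the whole interval, 8 at 1.5-fold and 5 with the other control. Scrambled siRNA over DMSO had 1 lower, and 4 at 1.5-fold, 0 with the whole interval and 2 with total counts. Over all genes the 2-fold counts moved with the threshold and filter. At 1.5-fold, 2637 were higher and 2368 lower after KD (1252 and 1037 at 2-fold), 2259 and 2024 after PD0332991 (1007 and 949), and 1783 and 2092 for scrambled siRNA over DMSO (705 and 883). With the whole interval past 2-fold they were 454 and 438, 226 and 455, and 165 and 265. Without a filter they were 3005 and 2060, 2814 and 2036, and 1909 and 2372. With 50 reads they were 632 and 676 after KD, 406 higher after PD0332991, and 311 and 465 for scrambled siRNA over DMSO. The cause of the shifts against the other control was not tested. Depth limits E2F2, E2F7 and E2F8 most, at 6 to 10 reads in PD0332991. No paired analysis was possible because each condition had 1 library.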
